A study of Mus musculus with 56 samples.

Results

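The comparison described here is the knockdown of Ctcf in SSEA1+ cells sorted at day 6 of reprogramming, with 2 libraries carrying Ctcf shRNA set against 2 libraries carrying a luciferase control shRNA (shLuci). These 4 libraries were chosen by their labels alone, out of 44 sorted-cell libraries and 56 samples in the series, and all 13451 gene rows of the sorted-cell table were tested. The cells began as passage 2 mouse embryonic fibroblasts with an Oct4-GFP reporter (OG2-MEFs), and both groups received Oct4, Sox2, Klf4 and Myc (OSKM). The labels describe retroviral OSKM as well as an inducible polycistronic OSKM lentivirus with rtTA and doxycycline, without saying which of them produced the sorted cells. The shRNAs were delivered by retrovirus from Plat-E packaging cells, with the Ctcf shRNA virus concentrated beforehand, and the cells were kept in embryonic stem cell medium with vitamin C. The other sorted libraries were day 0 cells, the Thy1+, SSEA1+ and double-negative (SSEA1-Thy1-) cells of days 3, 6 and 9, and the GFP+ cells of day 12, with 2 libraries for each shRNA in each of these 11 populations. The labels do not say whether libraries of a group came from separate cultures, so p-values measure the spread between these samples, which may be technical.

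CTCF is a zinc finger protein that binds DNA at many sites, halts cohesin there and so anchors chromatin loops, and it can act as an insulator between neighbouring regulatory regions. During reprogramming of fibroblasts, Thy1, a surface antigen of the starting cells, is lost and the carbohydrate antigen SSEA1 appears on the cells that progress, before a fraction of them switch on the endogenous Oct4 gene. SSEA1+ cells of an intermediate day therefore stand between the loss of fibroblast expression and the start of the pluripotency network.

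The values are scores, the authors' normalized tag counts rounded to whole numbers, and were compared as log2(score + 1) with limma in 1 fit over all 44 libraries. Whether scores were divided by gene length is not stated, so levels were compared between libraries and never between genes. The total score over genes ran from 26979331 to 27857598 in the 4 libraries and from 26119844 to 28981763 in all 44, the median gene score of the 4 was 488 to 492, and 273 to 321 genes were at 0. One library stood apart: control replicate 1 had a score of 290619 for Gm42418, a predicted gene that overlaps ribosomal RNA, against 8636 in control replicate 2, 4950 and 7678 in the Ctcf shRNA libraries and at most 31810 in the 42 libraries outside this control pair. The same library was high for AY036118 (181252 against 4803 in its partner) and for Lars2 (21660 against 1176), and its summed score over 20 clustered histone genes was 8690, against 3152, 2550 and 2712 in the other 3. Counts that rest on this library are given with and without it where the difference is large. In bulk samples, fewer cells of a type and less RNA per cell cannot be told apart.

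The sort was checked against marker genes. Cdh1, the epithelial cadherin, had scores of 4772 and 4563 in the control libraries and 4441 and 3432 with Ctcf shRNA, against 3 and 1 in day 0 control cells. Epcam, an epithelial surface protein, had 3454 and 3683 in the controls and 2754 and 3002 with Ctcf shRNA, against 4 and 8 at day 0. Thy1 itself had 81 and 119 in the controls and 109 and 157 with Ctcf shRNA, against 5888 and 5800 in the control Thy1+ cells of the same day. Nanog, a transcription factor of naive pluripotent cells, had 1688 and 1525 in the controls and 858 and 941 with Ctcf shRNA. The libraries thus carried the epithelial and early pluripotency transcripts of the labelled population, with Thy1 low in all 4. Nanog was lower in both Ctcf shRNA libraries, but its log2 difference of -0.84 did not pass the test (limma, adjusted p = 0.190).

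The targeted gene was lower. Ctcf (GRCm38 chr8:105636568-105682922) had scores of 1994 and 1925 in the control libraries and 838 and 865 with Ctcf shRNA. The groups lay apart, and the mean score was 2.3-fold lower, a log2 fold change of -1.20 (SE 0.0863, limma, adjusted p = 1.03e-10). Among the other CTCF, cohesin and ISWI genes, Rad21, a cohesin subunit, fell by 0.27 on the log2 scale (4066 and 4044 against 3310 and 3398), while Stag1, another cohesin subunit, rose by 0.41 (6417 and 6738 against 9364 and 8134). Chrac1, a histone-fold subunit of an ISWI complex, rose by 0.60. In that list 3 of 26 genes rose and 3 fell, Ctcf included, with a median log2 fold change of -0.11. Both shares were near those of all genes, of which 11.2% rose and 11.0% fell. Smarca5, the ATPase of ISWI complexes, had 171558 and 203478 in the controls and 181252 and 128388 with Ctcf shRNA. The score 181252 was also that of AY036118 in control replicate 1, and the 20 highest values were equal in all 44 libraries. Smarca5 scores may therefore depend on the ranks of other genes, which was not tested. The Smarca5 groups overlapped and did not pass (log2 -0.29, limma, adjusted p = 0.0678). The 4 reprogramming factors did not pass either, with adjusted p from 0.424 to 0.993. Their log2 differences were -0.11 for Pou5f1, 0.22 for Sox2, -0.01 for Klf4 and -0.01 for Myc, and the scores of the first were 10477 and 9418 against 10958 and 7685.

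Of the 13451 genes, 2980 (22.2%) were called at an adjusted p below 0.05, 1500 higher (11.2%) and 1480 lower (11.0%) with Ctcf shRNA. An unadjusted p below 0.05 was reached by 4520 genes, and the libraries of the groups did not overlap for 2940 of those called. The median log2 fold change of all genes was 0.00. More than a 2-fold change was seen for 261 genes called higher and 221 called lower, so most called changes were small. The number of calls rests on the spread shared over the 22 groups: with only the 4 libraries fitted, 13 genes were called, among them Slc16a3, Bnip3, Pfkl, Nt5dc2 and Man2a2, and 10 of these 13 were also called, in the same direction, in the fit over all libraries. Without Ctcf shRNA replicate 2, 1787 genes were called, and without control replicate 1, 1806. The gene lists described next differed in how their members moved. Among lists with at least 10 genes tested, the glycolysis list had the lowest median and the smooth muscle list the highest.

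**Figure D1:**
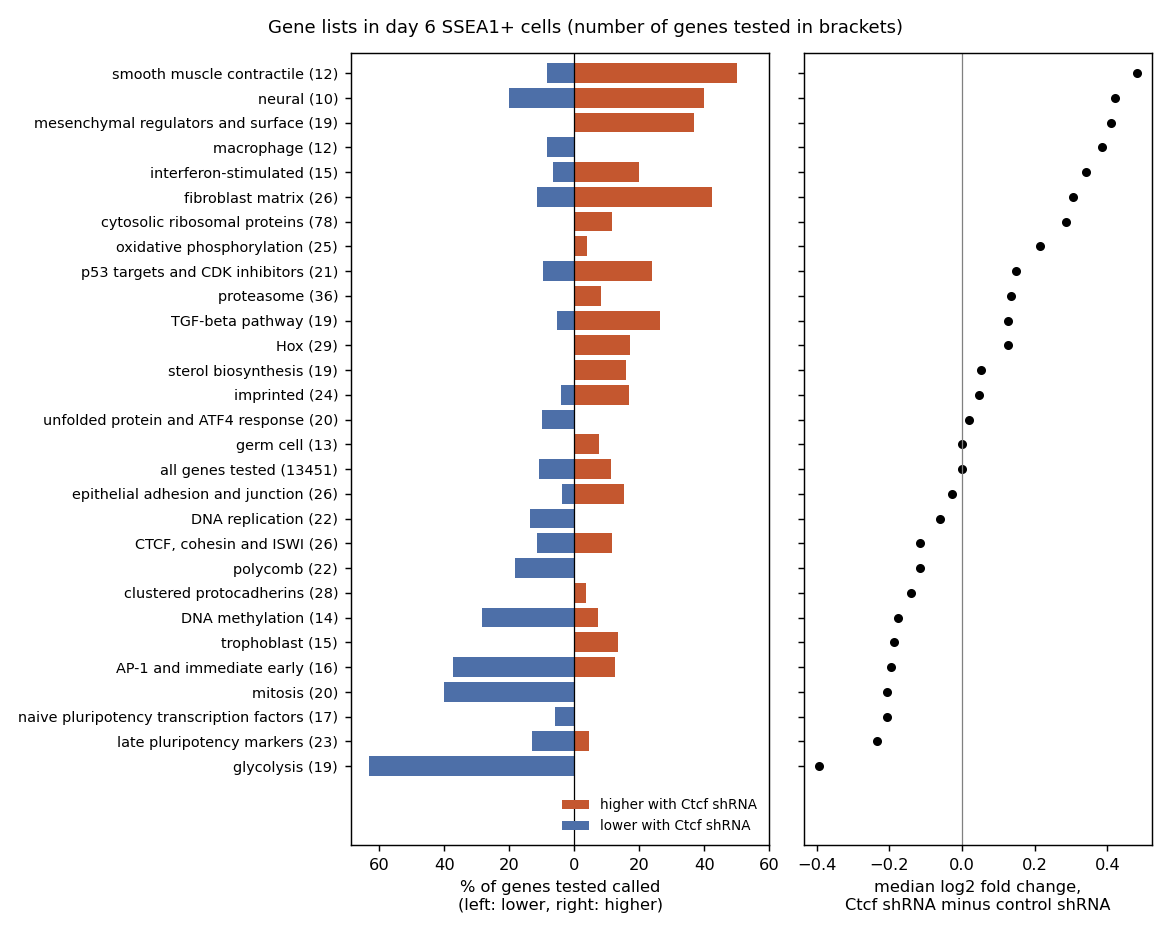
Share of genes called lower (blue, to the left) and higher (orange, to the right) with Ctcf shRNA in day 6 SSEA1+ cells for each list with at least 10 genes tested, and the median log2 fold change of the list. The glycolysis list has 12 of 19 genes lower and none higher, a median of -0.39, against a median of 0.00 over all 13451 genes; the smooth muscle list has the highest median, 0.48.

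Glucose uptake, glycolysis and lactate export genes were lower with Ctcf shRNA. Of the 19 genes in this list, 12 fell and none rose, with a median log2 fold change of -0.39. The list also holds Bnip3, a gene of hypoxia and mitophagy and not of glycolysis, which is among the 12. Glycolysis turns glucose to pyruvate and lactate, and its transporters and enzymes are known targets of the hypoxia-inducible factors, which bind the short core ACGTG in DNA. Pluripotent cells use glycolysis heavily, and its genes rise during reprogramming. The promoters of 4 of the genes with the largest falls and of Slc2a1 are shown because these genes moved together: 300 bases around each RefSeq start, GRCm38.p6, written 5′ to 3′ on the gene's strand, with each match to ACGTG on either strand in capitals. They lie at chr11:120948817-120949116 on the plus strand (Slc16a3), chr7:138909457-138909756 on the minus strand (Bnip3), chr11:78322823-78323122 on the plus strand (Aldoc), chr10:78009758-78010057 on the minus strand (Pfkl) and chr4:119108495-119108794 on the plus strand (Slc2a1).
Slc16a3: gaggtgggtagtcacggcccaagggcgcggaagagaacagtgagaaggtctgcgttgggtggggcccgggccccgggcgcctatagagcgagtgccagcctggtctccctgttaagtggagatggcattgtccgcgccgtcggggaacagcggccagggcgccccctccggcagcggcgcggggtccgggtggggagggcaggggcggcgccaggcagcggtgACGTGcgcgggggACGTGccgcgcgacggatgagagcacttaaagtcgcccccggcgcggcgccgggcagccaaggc
Bnip3: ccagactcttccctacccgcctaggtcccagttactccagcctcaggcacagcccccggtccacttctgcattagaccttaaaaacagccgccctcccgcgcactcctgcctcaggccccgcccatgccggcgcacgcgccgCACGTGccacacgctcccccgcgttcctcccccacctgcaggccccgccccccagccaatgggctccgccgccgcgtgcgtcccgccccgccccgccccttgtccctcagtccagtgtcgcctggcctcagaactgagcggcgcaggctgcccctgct
Aldoc: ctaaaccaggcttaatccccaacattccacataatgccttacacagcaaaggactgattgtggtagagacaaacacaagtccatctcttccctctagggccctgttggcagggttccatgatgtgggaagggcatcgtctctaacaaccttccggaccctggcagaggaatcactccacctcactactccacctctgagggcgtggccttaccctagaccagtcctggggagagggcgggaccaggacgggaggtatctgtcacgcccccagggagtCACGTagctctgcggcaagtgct
Pfkl: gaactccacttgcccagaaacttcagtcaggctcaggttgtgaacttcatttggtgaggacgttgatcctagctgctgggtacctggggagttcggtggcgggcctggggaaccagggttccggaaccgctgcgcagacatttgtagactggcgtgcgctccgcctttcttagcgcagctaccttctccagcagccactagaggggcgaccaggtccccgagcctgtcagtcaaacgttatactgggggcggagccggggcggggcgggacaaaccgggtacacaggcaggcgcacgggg
Slc2a1: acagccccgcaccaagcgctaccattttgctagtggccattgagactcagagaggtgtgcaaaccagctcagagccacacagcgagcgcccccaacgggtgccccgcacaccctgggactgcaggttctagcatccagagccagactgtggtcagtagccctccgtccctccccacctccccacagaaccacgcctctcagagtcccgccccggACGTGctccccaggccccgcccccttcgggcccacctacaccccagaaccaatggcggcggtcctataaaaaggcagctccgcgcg
Slc16a3 has 2 separate matches, Bnip3 1 palindrome that matches on both strands, Aldoc and Slc2a1 1 each, and Pfkl none. A second Aldoc start, with its promoter at chr11:78323948-78324247, has none. Over the list, 9 of 18 promoters of 11 called genes hold the letters (50.0%), as do 4 of 9 promoters of 7 genes not called (44.4%), against 24.9% of the promoters of genes tested and 19.6% of all 32851 promoters in the RefSeq table. Of the promoters of all genes called lower, 22.8% hold the letters, as do 22.6% of those called higher and 25.6% of those not called. These letters were chosen after the values were seen, and a match is a description and not a site.

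Slc16a3, the monocarboxylate transporter MCT4 that exports lactate, had scores of 934 and 971 in the control libraries and 50 and 52 with Ctcf shRNA. This was the largest fall by fold among the genes named here: the mean was 18.7-fold lower, a log2 fold change of -4.20 (SE 0.171, limma, adjusted p = 1.47e-15). Bnip3, a mitochondrial protein of hypoxia and mitophagy, had 538 and 528 in the controls and 86 and 82 with Ctcf shRNA (log2 -2.65, SE 0.173, adjusted p = 2.24e-11). In both genes the Ctcf shRNA libraries lay far below both controls and close to each other. Aldoc, an aldolase, had 148 and 146 against 38 and 29 (log2 -2.11, SE 0.353, adjusted p = 8.30e-05). Pfkl, the liver-type phosphofructokinase, had 2506 and 2497 against 984 and 1010 (log2 -1.33, SE 0.0905, adjusted p = 4.11e-11). The glucose transporters fell by less, and again without overlap. Slc2a3 (GLUT3) had 5413 and 5532 against 2902 and 2909 (log2 -0.91), and Slc2a1 (GLUT1) had 2546 and 2579 against 1416 and 1370 (log2 -0.88). Among the other enzymes, Hk1 fell by 0.55, Tpi1 by 0.42, Pkm by 0.41, Ldha by 0.39, Aldoa by 0.37 and Pdk1, a kinase that restrains pyruvate dehydrogenase, by 0.30 on the log2 scale. Eno1, Gapdh, Gpi1, Hk2, Pgam1, Pgk1 and Pfkp did not pass, with log2 differences from -0.23 to 0.14. The list had 11 to 13 genes lower and none higher when any 1 of the 4 libraries was left out, and 3 lower with only the 4 libraries fitted. Of the genes of oxidative phosphorylation, 1 of 25 rose and none fell (median 0.21); without Ctcf shRNA replicate 1, 6 rose, and without any other of the 4 libraries none did.

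**Figure D2:**
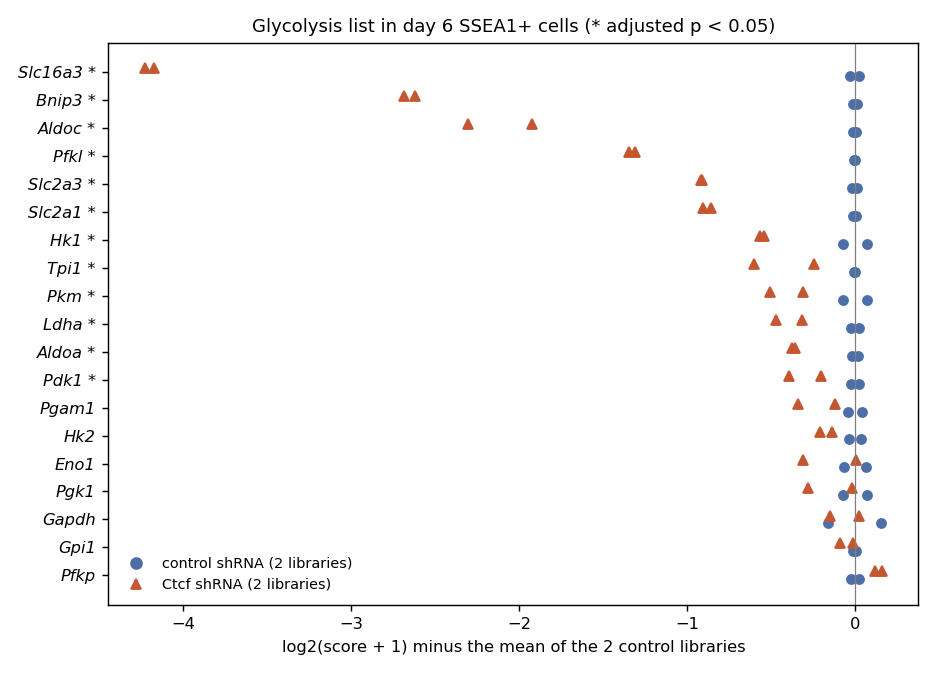
Log2(score + 1) of each of the 19 glycolysis list genes in the 2 control libraries (blue circles) and the 2 Ctcf shRNA libraries (orange triangles), relative to the mean of the 2 controls; an asterisk marks an adjusted p below 0.05. Both triangles lie left of both circles for the 12 called genes, from -4.20 for Slc16a3 to -0.30 for Pdk1 in mean difference.

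The response of these genes differed between days. In day 3 SSEA1+ cells, where 6.78% of genes were called (3.56% higher, 3.22% lower), none of the 19 was called. Slc16a3 had 52 and 52 in the controls and 45 and 32 with Ctcf shRNA, and Bnip3 had 56 and 64 against 62 and 53. The summed score of the list was 123042 and 123357 in the day 3 controls and 121525 and 111240 with Ctcf shRNA, against 158525 and 146116 and then 118423 and 130790 at day 6. The day 6 Ctcf shRNA scores of both genes were thus near those of day 3, and those of the day 6 controls were not. The day 6 effect was more negative than the day 3 effect for 7 of the 19 genes by a test of the difference itself, which 5.90% of all genes passed, 2.77% more positive and 3.13% more negative at day 6 (Slc16a3, Bnip3, Pfkl, Slc2a1, Slc2a3, Hk1 and Ldha), and none differed the other way. In day 9 SSEA1+ cells (13.8% of genes called), Slc16a3 had 852 and 846 in the controls and 388 and 396 with Ctcf shRNA, and Bnip3 had 522 and 600 against 256 and 219. Both were still lower with Ctcf shRNA, with log2 fold changes of -1.11 and -1.24, and the day 6 effect was more negative for Slc16a3 by 3.08 (adjusted p = 1.61e-09) and for Bnip3 by 1.41 (adjusted p = 0.000245). Over the list, 9 of 19 fell and 2 rose at day 9, with a median of -0.26. The 2 that rose were the glucose transporters: Slc2a1 had 4898 and 5140 in the controls and 5556 and 6527 with Ctcf shRNA, a log2 fold change of 0.26 against -0.88 at day 6. The difference between the days passed for Slc2a1 (log2 -1.14, adjusted p = 1.26e-09), Slc2a3 (log2 -1.17) and Pfkl (log2 -0.82) as well, 5 of 19 genes in all, against 9.61% of all genes. In day 12 GFP+ cells (49.2% of genes called, 24.6% higher and 24.7% lower) 15 of the 19 fell and 2 rose, with a median of -0.51. Slc16a3 and Bnip3 had log2 fold changes of -1.16 and -0.90 there. The fall of the list was not particular to the SSEA1+ sort. In day 6 Thy1+ cells (14.4% of genes called, 6.83% higher and 7.56% lower) 11 of the 19 fell, and Slc16a3 had 784 and 700 against 29 and 34. In day 6 double-negative cells (42.1% of genes called, 20.2% higher and 21.9% lower) 15 fell and 1 rose, and Slc16a3 had 804 and 757 against 22 and 14. The day 6 effect differed between SSEA1+ and Thy1+ cells for 5 genes, against 3.21% of all genes more positive and 2.47% more negative in SSEA1+ cells. It was more negative in SSEA1+ cells for Hk1, Slc2a1 and Slc2a3, and less negative or positive for Pdk1 (log2 difference 1.52) and Pfkp.

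**Figure D3:**
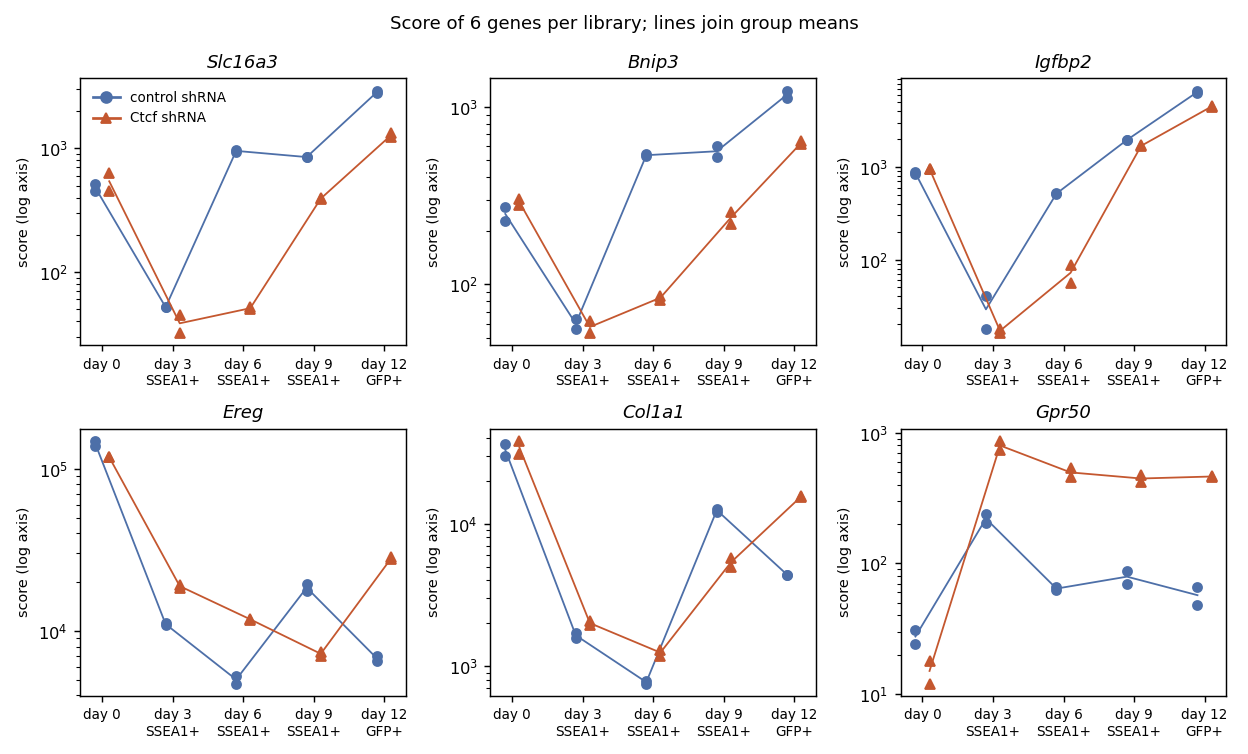
Scores (log axis) of 6 genes in each control library (blue circles) and each Ctcf shRNA library (orange triangles) at day 0, in SSEA1+ cells of days 3, 6 and 9 and in GFP+ cells of day 12; lines join group means. Slc16a3 at day 6 has 934 and 971 in the controls and 50 and 52 with Ctcf shRNA, while at day 3 all 4 libraries lie between 32 and 52; Ereg and Col1a1 are higher with Ctcf shRNA at day 6 and lower at day 9.

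Other genes that fell belonged to several functions. Igfbp2, a secreted binding protein of insulin-like growth factors, had scores of 514 and 520 in the controls and 88 and 56 with Ctcf shRNA. It was 7.18-fold lower (log2 -2.86, SE 0.258, limma, adjusted p = 8.54e-09), and the groups lay wide apart. Chst11, a sulfotransferase of chondroitin sulfate synthesis, had 534 and 512 against 131 and 116 (log2 -2.08). Man2a2, a mannosidase of N-glycan processing in the Golgi, had 1106 and 1065 against 318 and 301 (log2 -1.81). Nt5dc2 had 1264 and 1318 against 359 and 382 (log2 -1.80, SE 0.0741, adjusted p = 1.47e-15). For these genes, too, both Ctcf shRNA libraries were low and within a narrow range. Gas6, the ligand of the TAM receptor tyrosine kinases, had 856 and 916 against 328 and 341 (log2 -1.40). Sema5b, a semaphorin, had 688 and 660 against 229 and 182 (log2 -1.72), and Itga3, an integrin subunit that binds laminins, had 636 and 558 against 250 and 240 (log2 -1.28). Metabolic and lysosomal enzymes were among the falls: Aldh5a1, succinate semialdehyde dehydrogenase, fell by 1.41 and Gaa, the lysosomal alpha-glucosidase, by 1.00 on the log2 scale. Samd9l fell by 1.61, Lrrc28 by 1.44 and Crocc, the ciliary rootlet protein, by 1.42. Hist1h1d, a linker histone gene, was called lower at -1.67, but its scores were 4035 and 891 against 650 and 544, and without control replicate 1 the value was -0.58 (adjusted p = 0.398). Over the 20 clustered histone genes, 1 was called higher and 8 lower, with the high sum in control replicate 1 given above. Among the falls, control replicate 2 also lay above both Ctcf shRNA libraries for Hist1h2af (496 and 266 against 6 and 28) and Hist1h2ap (434 and 266 against 63 and 48). It did not for Hist2h3c1 (347 and 39 against 32 and 41) or Hist2h3c2 (385 and 31 against 28 and 40). The part of control replicate 1 in the calls other than Hist1h1d was not tested.

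Igfbp2, Chst11 and Gas6 also differed between populations. At day 3 Igfbp2 was low in all libraries (18 and 40 against 16 and 18), and at day 9 it was high in all (1960 and 1970 against 1671 and 1716). Its day 6 effect was more negative than at day 3 by 2.23, at day 9 by 2.65 and in day 6 Thy1+ cells by 3.23 on the log2 scale, each called. Day 6 was thus the SSEA1+ day at which the control and Ctcf shRNA scores of Igfbp2 were farthest apart. Its fall was not particular to the SSEA1+ sort. In day 6 double-negative cells, where 42.1% of genes were called, Igfbp2 fell by 2.70 (limma, adjusted p = 5.18e-09). Chst11 had 790 and 796 against 779 and 886 in day 6 Thy1+ cells, with no fall there, and 690 and 699 against 242 and 308 in day 9 SSEA1+ cells, where it was again lower. Gas6 had 364 and 422 against 365 and 391 in day 3 SSEA1+ cells and 1400 and 1362 against 585 and 563 at day 9.

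Among genes with a group mean score of at least 490, the largest rise was in Gpr50, an orphan receptor related to the melatonin receptors and encoded on the X chromosome. It had scores of 62 and 66 in the controls and 534 and 458 with Ctcf shRNA, 7.75-fold higher (log2 2.93, SE 0.199, limma, adjusted p = 3.93e-11). Gpr50 was also called higher in day 3 SSEA1+ (log2 1.86), day 6 Thy1+ (2.59), day 9 SSEA1+ (2.49) and day 12 GFP+ cells (3.01), and lower at day 0 (-0.85). Of all genes, 49.2% were called in day 12 GFP+ cells (24.6% higher, 24.7% lower) and 6.68% at day 0 (2.93% higher, 3.75% lower). Its promoter (GRCm38.p6 chrX:71663417-71663716, plus strand, RefSeq) is shown because the gene rose in so many populations, with the letters AGGGGGC, part of the CTCF motif, in capitals. The promoters of Adh7, Igfbp2 and Chst11, searched in the same way, hold neither these letters nor AGATGGC. Both listed promoters of Nt5dc2, which fell, hold 1 match each. In the promoters printed for the glycolysis list, capitals mark ACGTG only. That of Slc16a3 also holds AGATGGC and, on the other strand, AGGGGGC, and that of Slc2a1 holds AGGGGGC on the other strand. Over that list, AGGGGGC or AGATGGC was in 4 of 18 promoters of called genes and 1 of 9 of those not called.
Gpr50: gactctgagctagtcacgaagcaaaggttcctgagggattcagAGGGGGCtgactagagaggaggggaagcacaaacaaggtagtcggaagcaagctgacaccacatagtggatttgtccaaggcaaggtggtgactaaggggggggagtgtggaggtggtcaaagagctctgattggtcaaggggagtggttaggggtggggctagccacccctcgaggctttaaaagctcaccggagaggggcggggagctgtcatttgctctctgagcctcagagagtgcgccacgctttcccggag
The match lies in the first part of the window, upstream of the start, and the shares of promoters that hold these letters are given with the neighbouring genes further on.

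Among the other genes that rose, several encode adhesion, guidance and secreted proteins. Adh7, an alcohol dehydrogenase active on retinol, had 380 and 415 in the controls and 1368 and 1631 with Ctcf shRNA (log2 1.91, SE 0.152, adjusted p = 8.81e-10). Vcam1, a vascular adhesion molecule also made by fibroblasts, had 297 and 344 against 693 and 773 (log2 1.19, SE 0.0743, adjusted p = 7.78e-12). Ereg, the EGF receptor ligand epiregulin, had 4731 and 5292 against 11824 and 11745 (log2 1.24, SE 0.0831, adjusted p = 3.88e-11). In these genes both Ctcf shRNA libraries lay above both controls. Sema3d and Sema3c, secreted semaphorins, rose by 1.72 and 0.85. Angpt1, the ligand of the Tek receptor, had 272 and 306 against 574 and 809 (log2 1.24). Tinagl1, a secreted matricellular protein, had 246 and 300 against 726 and 768 (log2 1.46, adjusted p = 2.49e-12). Neto2, an auxiliary subunit of kainate receptors, had 4512 and 4662 against 12357 and 11100 (log2 1.35). Lgals3, galectin-3, had 1564 and 1397 against 3560 and 4394 (log2 1.42). Osbp2 rose by 1.80, Cavin3, a caveolar coat protein, by 1.43, Smpdl3a by 1.39, Prss23 by 1.13, Prss35 by 1.11 and Stmn2, a neuronal stathmin, by 1.01 on the log2 scale. Gprin3 was called at 1.30 (adjusted p = 0.0142), but not without Ctcf shRNA replicate 1 (adjusted p = 0.0765) or control replicate 1 (adjusted p = 0.0927). Of the 36 genes named for their fold or moderated t, 34 kept their call whichever of the 4 libraries was left out, the exceptions being Gprin3 and Hist1h1d.

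More fibroblast matrix genes were called higher than lower. This list holds collagens, their crosslinking enzymes and other proteins that fibroblasts secrete, which fall early in reprogramming. Of 26 genes, 11 rose and 3 fell, with a median log2 fold change of 0.30. Dcn, the proteoglycan decorin, had scores of 364 and 440 in the controls and 696 and 848 with Ctcf shRNA (log2 0.94, SE 0.178, limma, adjusted p = 0.000379). Timp3, an inhibitor of matrix proteases, had 366 and 360 against 659 and 708 (log2 0.91, adjusted p = 2.19e-06). Col1a1, a chain of the main fibrillar collagen, had 788 and 753 against 1180 and 1306 (log2 0.69, adjusted p = 3.53e-05). These rises were without overlap between groups and from low levels, since day 6 Thy1+ control cells had Col1a1 scores of 60237 and 52754. Fbln5, Thbs1, Loxl1, Col5a2, Lox, Col3a1, Thbs2 and Postn rose as well, by 0.32 to 0.73. Postn, periostin, had 88 and 213 against 221 and 236, and without control replicate 1 its value was 0.10 (adjusted p = 0.741). Col3a1 went from 0.34 to 0.13 without that library (adjusted p = 0.609) and also lost its call without Ctcf shRNA replicate 2 (adjusted p = 0.379). The collagen VI chain Col6a2 had 558 and 578 against 374 and 381 (log2 -0.59), Mmp2 fell by 0.48, and Lum, the proteoglycan lumican, had 64 and 46 against 42 and 8 (log2 -1.49). The count of higher genes moved with single libraries: 4 without Ctcf shRNA replicate 2, 6 without control replicate 1, 9 without control replicate 2 and 14 without Ctcf shRNA replicate 1.

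Mesenchymal regulators and surface genes moved the same way. Of 19 genes, 7 rose and none fell, with a median of 0.41. Prrx1, a homeobox factor of mesenchyme, had 792 and 914 in the controls and 1514 and 1340 with Ctcf shRNA (log2 0.74, SE 0.0949, adjusted p = 2.16e-06). Vim, the intermediate filament vimentin, had 4608 and 4488 against 5898 and 6390 (log2 0.43, adjusted p = 0.000462). Twist1 and Twist2, factors that repress Cdh1 in other cells, rose by 0.83 and 0.91, from scores of 48 and 66 and of 32 and 32. Pdgfra rose by 1.01, from 8 and 12 to 18 and 24, and Cdh2 and Cd44 by 0.51 and 0.38. Both Ctcf shRNA libraries were above both controls for each of these. Of the smooth muscle contractile genes, 6 of 12 rose, among them Actg2 (238 and 235 against 472 and 384, log2 0.85) and Acta2 (500 and 588 against 672 and 956, log2 0.56). Smtn fell (350 and 325 against 194 and 186, log2 -0.82), the list's median was 0.48, and 1 gene was higher without Ctcf shRNA replicate 2, 3 without control replicate 1 and 6 or 8 without either of the others. In the TGF-beta list 5 of 19 genes rose, including Id3 and Inhba, and Smad3, a signal transducer of the pathway, fell by 0.49; with 1 library left out, 0 to 4 rose.

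The matrix response was mostly of opposite direction in day 9 SSEA1+ cells. There, where 9.04% of genes were called lower and 4.80% higher, 25 of the 26 matrix genes fell with Ctcf shRNA and none rose, with a median of -1.12. The day 6 effect was more positive than the day 9 effect for all 26 genes by the test of the difference, which 6.42% of all genes passed in that direction and 3.19% in the other, with a median difference of 1.29. With 1 library of either day left out 24 to 26 passed, and with only the libraries of these groups fitted 17 did. Col1a1 had 12112 and 12744 in the day 9 controls and 4935 and 5758 with Ctcf shRNA. The day 9 controls carried far more of these transcripts than the day 6 controls: the summed matrix score was 20301 and 20635 in the day 6 controls and 23407 and 26820 with Ctcf shRNA, against 124240 and 127268 and then 59987 and 71403 at day 9. Thy1, which the SSEA1+ sort selects against, had 1290 and 1393 in the day 9 controls and 388 and 505 with Ctcf shRNA, against scores of 81 to 157 in the 4 day 6 libraries. The part of these levels in the difference between the days was not tested. Mesenchymal genes followed, with 14 of 19 lower at day 9 and 15 called for the difference, all more positive at day 6; that list holds Thy1 itself. Ereg went from a rise of 1.24 at day 6 to a fall of 1.35 at day 9 (17538 and 19396 against 7042 and 7402), a difference of 2.59 (adjusted p = 3.28e-14). At day 3 the matrix genes were again mixed, 7 higher and 4 lower, with summed scores of 32204 and 34447 against 40383 and 40356. In day 6 Thy1+ cells 1 rose and 9 fell, and the difference from the SSEA1+ effect was called for 12 genes, all more positive in SSEA1+ cells. Matrix genes were called higher in other populations as well: 24 of 26 rose and 1 fell in day 6 double-negative cells (median 1.13), and 25 rose and none fell in day 12 GFP+ cells (median 1.54), where 49.2% of all genes were called.

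**Figure D4:**
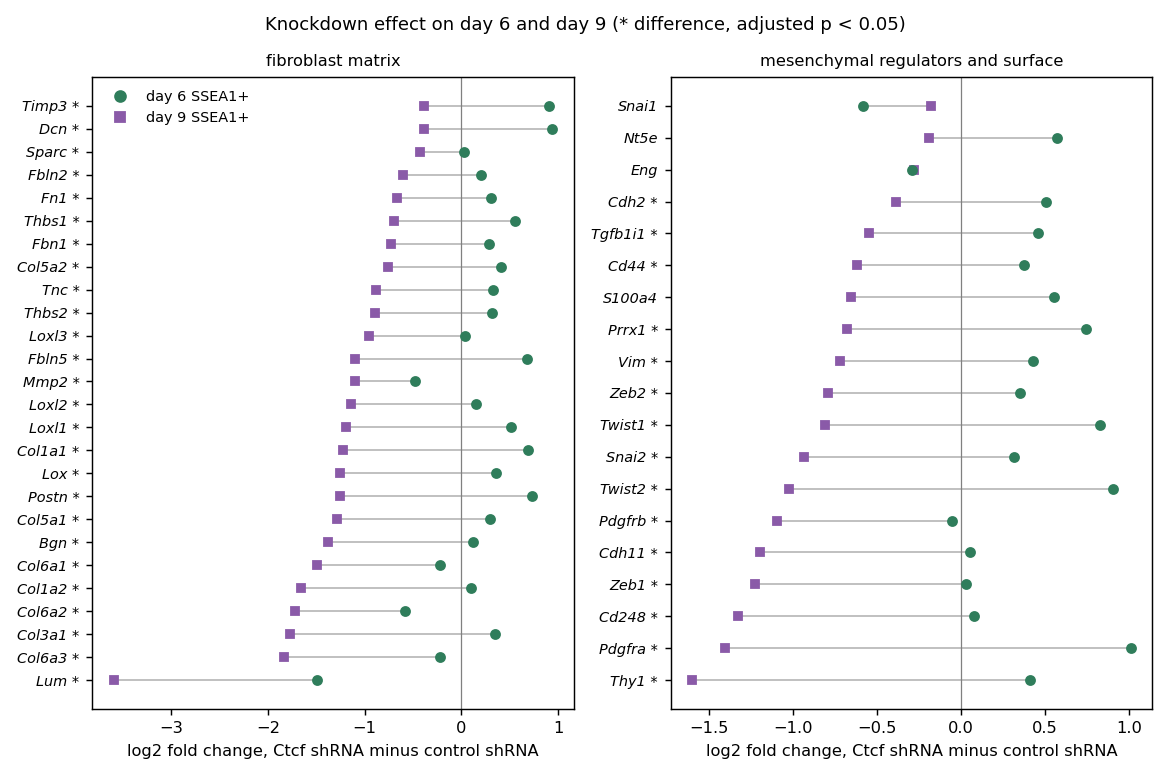
Log2 fold change with Ctcf shRNA of the fibroblast matrix genes (left) and the mesenchymal genes (right) in day 6 SSEA1+ cells (green circles) and day 9 SSEA1+ cells (purple squares); an asterisk marks a difference between the days with an adjusted p below 0.05. The circle lies right of the square for all 26 matrix genes, and 15 of 19 mesenchymal genes carry an asterisk.

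AP-1 and immediate early genes, which respond to growth factors and stress, moved in both directions. Egr1 had scores of 2898 and 3030 in the controls and 1590 and 1490 with Ctcf shRNA (log2 -0.94, SE 0.112, limma, adjusted p = 6.45e-07). Fos had 1190 and 1216 against 712 and 707 (log2 -0.76, adjusted p = 5.31e-08). Both lay wholly below the controls, and Egr2, Fosb, Atf3 and Nr4a1 fell as well, by 1.36, 0.46, 0.42 and 0.26. The late Fos family members Fosl1 and Fosl2 rose, by 0.59 (126 and 132 against 200 and 190) and by 0.54 (415 and 409 against 649 and 550). In all, 2 of 16 rose and 6 fell, with a median of -0.19; 3 fell without Ctcf shRNA replicate 2 or without control replicate 2. Egr2 lost its call without Ctcf shRNA replicate 2 (adjusted p = 0.129). In day 3 SSEA1+ cells 6 of the 16 rose and none fell, and the day 6 effect was more negative for 8 genes and more positive for Fosl1. In day 9 SSEA1+ cells none rose and 14 fell, and there the day 6 effect was the more positive for the 11 genes called.

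Few pluripotency genes were called at this day. Log2 fold changes were negative for 13 and positive for 4 of the naive factors, and negative for 15 and positive for 8 of the late markers. The naive factors summed to 7776 and 7716 against 6852 and 6535, and the late markers to 19449 and 18901 against 19096 and 18934. With a pseudocount of 8, 3 naive factors were lower and 2 higher, and 6 late markers were lower and 2 higher. Of the naive pluripotency factors, 1 of 17 fell and none rose, with a median of -0.21. That gene was Sox15, at 15 and 32 in the controls and 1 and 5 with Ctcf shRNA (log2 -2.73, limma, adjusted p = 0.00594), and it was not called without Ctcf shRNA replicate 1 or control replicate 2. Of the late markers, 1 of 23 rose and 3 fell (median -0.23). Utf1, an early marker of pluripotent chromatin, had 342 and 304 against 86 and 91 (log2 -1.85, adjusted p = 0.0107), and Tet1, a 5-methylcytosine dioxygenase, had 366 and 330 against 182 and 163 (log2 -1.01). L1td1 fell by 0.37. Lin28b, a repressor of let-7 microRNAs, had 1399 and 1430 against 3288 and 2872, a rise of 1.12 on the log2 scale. For Tet1 the day 6 effect was more negative than that of day 9 SSEA1+ cells by 1.44, where its scores were 688 and 723 against 902 and 1004. Of the epithelial genes 4 of 26 rose and 1 fell, with a median of -0.03. Krt7, a keratin of simple epithelia, had 30 and 32 against 96 and 112 (log2 1.71, adjusted p = 4.24e-08). The desmosomal genes Dsc2, Dsp and Pkp2 rose by 0.71, 0.39 and 0.31. The claudin Cldn4 fell by 0.32 and lost its call with any 1 of the 4 libraries left out.

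Small falls were called among some cell cycle and chromatin genes. Of all genes, 11.0% were called lower and 11.2% higher. Of the mitosis genes 8 of 20 fell and none rose, with a median of -0.21. Top2a, the topoisomerase that untangles replicated chromosomes, had 11459 and 10796 in the controls and 8516 and 8898 with Ctcf shRNA (log2 -0.35, SE 0.0772, limma, adjusted p = 0.0015). Cenpf, Ccna2 and Mki67 fell by 0.39, 0.36 and 0.34, and 3 to 6 of the list fell with 1 library left out. Of the DNA replication genes 3 of 22 fell and none rose, with a median of -0.06. That share of falls was near that of all genes. The summed scores of the list overlapped between groups (91790 and 92403 against 86245 and 96288). Rrm2, the regulated subunit of ribonucleotide reductase, stood out from the other replication genes at 5152 and 4497 against 2478 and 2162 (log2 -1.06, adjusted p = 2.07e-07). Among the polycomb genes 4 of 22 fell and none rose, with a median of -0.12. The falls included Cbx2 (385 and 385 against 251 and 250, log2 -0.62) and Ezh2, the methyltransferase subunit (3714 and 3629 against 3105 and 2578, log2 -0.38). Of the DNA methylation genes 4 of 14 fell: Tet1 as given, Dnmt3a by 0.41, Dnmt1 by 0.35 and Uhrf1, which recruits Dnmt1, by 0.28. Zfp57, which protects imprints, rose by 0.28.

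The remaining pathway lists were mixed. Of all genes, 11.2% were called higher and 11.0% lower. The shares of ribosomal protein and proteasome genes called higher were near or below the first of these. The share of unfolded protein and ATF4 response genes called lower was near the second. Of the p53 targets and CDK inhibitors 5 of 21 rose and 2 fell. Cdkn2b rose by 0.60 (134 and 111 against 164 and 210), Bax by 0.47 and Cdkn1a by 0.22. The number higher was 1 without Ctcf shRNA replicate 2 and 2 without either control, and Bax lost its call without each of these 3 libraries (adjusted p = 0.267, 0.0908 and 0.118). Btg2 and Cdkn1b each fell by 0.39. Of the interferon-stimulated genes 3 of 15 rose and 1 fell. Ifih1 had 21 and 20 against 64 and 38 (log2 1.23), while Ddx58, another RNA sensor, fell by 0.62. Among the unfolded protein and ATF4 response genes 2 of 20 fell and none rose, and both are also known to respond to low oxygen. Vldlr, a lipoprotein receptor, had 52 and 50 against 14 and 16 (log2 -1.70, SE 0.18, limma, adjusted p = 1.31e-07), and Ddit4, an inhibitor of mTORC1, had 1446 and 1387 against 780 and 881 (log2 -0.77). Of the sterol synthesis genes 3 of 19 rose and none fell, with Msmo1, a sterol oxidase of the pathway, rising by 0.71 on the log2 scale. Of the cytosolic ribosomal protein genes, which have many pseudogenes that can share reads, 9 of 78 rose and none fell, and without Ctcf shRNA replicate 2 none was called, and without either control 1 was. Of the proteasome genes 3 of 36 rose, Psmb5 by 0.65; 8 rose without Ctcf shRNA replicate 1 and none without control replicate 1.

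Gene families in which CTCF sites are well known were also counted, beside 11.2% of all genes called higher and 11.0% lower. Of the clustered protocadherins 1 of 28 was called, Pcdhb17 with scores of 1 and 5 in the controls and 7 and 14 with Ctcf shRNA, and the median was -0.14. In day 9 SSEA1+ cells 24 of these 28 were called lower and none higher, and the difference of effects between the days was called for 14. Alpha and gamma protocadherins share constant exons, so these genes are not separate measurements. Without Ctcf shRNA replicate 1, 20 were called lower, and without any other of the 4 day 6 libraries none was. Of the Hox genes 5 of 29 rose and none fell, led in level by Hoxd13 at 187 and 204 against 419 and 376 (log2 1.02, SE 0.120, limma, adjusted p = 6.15e-07). The number of Hox genes higher was 1 without Ctcf shRNA replicate 2, where 1 was also lower, 2 without control replicate 1, 3 without Ctcf shRNA replicate 1 and 1 after quantile scaling. Of the imprinted genes 4 of 24 rose and 1 fell. Plagl1, an imprinted zinc finger gene, had 983 and 940 against 1995 and 1844 (log2 1.00, adjusted p = 9.05e-07), Mest rose by 0.80 and Ndn by 0.67, and Nnat fell by 0.69.

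Markers of other cell types were called in both directions, beside 11.2% of all genes called higher and 11.0% lower. Krt14, a keratin of basal keratinocytes, had 5 and 6 in the controls and 64 and 58 with Ctcf shRNA (log2 3.26, limma, adjusted p = 4.49e-08), and Krt17 was called higher by 0.86, but not without Ctcf shRNA replicate 2 or either control (adjusted p from 0.0899 to 0.191). The summed score over the 8 keratinocyte genes was 9120 and 8932 against 9061 and 8610, so the list as a whole did not follow Krt14. Of the macrophage genes 1 of 12 fell: Laptm5 had 1278 and 1354 against 666 and 540 (log2 -1.13, limma, adjusted p = 7.77e-08). The list summed to 1725 and 1929 against 1167 and 1204, and Laptm5 made up much of these sums. Log2 fold changes were positive for 7 of the 12 and negative for 5, with a median of 0.39. The macrophage list as a whole thus did not follow Laptm5. None of the 6 endothelial genes was called. Of the trophoblast genes 2 of 15 rose, Krt7 as given and Gata2 (52 and 46 against 135 and 119, log2 1.36, adjusted p = 4.13e-10). Of the neural genes 4 of 10 rose and 2 fell: Stmn2 as given, Neurog2 by 1.41, Ncam1 and Tubb3 rose, Elavl4 fell by 1.13 and Nes by 0.61. The neural list summed to 7317 and 7811 in the controls and 10359 and 10612 with Ctcf shRNA; 1 gene was higher without Ctcf shRNA replicate 2, and 2 were without control replicate 1 or after quantile scaling. Stmn2 alone made up 3270 and 3422 of the neural sums in the controls and 6616 and 6868 with Ctcf shRNA. The higher neural sum thus rested on Stmn2 and does not describe the list as a whole. Gata4 and Pdgfra rose among 8 endoderm genes, and Ddx4 among 13 germ cell genes. Acta1 (24 and 26 against 64 and 94, log2 1.60) rose among 4 skeletal muscle genes, and Eif4e3 among 3 genes of the totipotent early embryo. Ddx4 lost its call with any 1 of the 4 libraries left out (adjusted p from 0.0582 to 0.195) and after quantile scaling (adjusted p = 0.151).

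Genes that were called and lay next to each other along a chromosome were counted, because CTCF acts as an insulator. Among 13426 adjacent pairs of tested genes, both members were called in 691, in the same direction in 427 (61.8%) and in opposite directions in 264. The 427 pairs were 3.18% of all adjacent pairs. Of all genes, 22.2% were called, 11.2% higher and 11.0% lower. Whether neighbours were called together more often than those shares imply was not tested. There were 59 runs of at least 3 neighbours called the same way. The longest had 5 genes, all higher: Soga3, 9330159F19Rik, Echdc1, Rnf146 and Rspo3 at GRCm38 chr10:29143839-29535867, and Tmem144, Fam198b, Glrb, Pdgfc and Ctso at chr3:79812564-81956725. In the first, Echdc1 had 1253 and 1256 in the controls and 1792 and 1877 with Ctcf shRNA (log2 0.55, limma, adjusted p = 9.06e-06), while Rspo3, a WNT potentiator, went from 3 and 0 to 10 and 9. In the second, Glrb, a glycine receptor subunit, went from 4 and 2 to 20 and 14 (log2 2.20). A run of 4 lower genes at chr10:127660918-127747349 held Nab2, Nemp1, Tac2 and Zbtb39, with Tac2, the neurokinin B gene, at 81 and 73 against 13 and 15 (log2 -2.38). Runs of 4 higher genes, tied in length with others, were Ube2e3, Itga4, Cerkl and Itprid2 at chr2:78868124-79672966 and Fam102b, Slc25a24, Vav3 and Prmt6 at chr3:108970997-110250998. Among the runs of 3 lower genes was that of Gm26917, Gm42418 and AY036118, which were highest in control replicate 1. Another held the histone genes Hist1h2af, Hist1h1d and Hist1h2bg, also highest in that library. Echdc1 and Rnf146, Nab2 and Nemp1, and Itga4 and Cerkl overlap on opposite strands. Whether counting used strand is not stated, so those pairs cannot be fully separated. The promoter letters AGGGGGC or AGATGGC, short parts of the CTCF motif sought on both strands, were present in 21.4% of the promoters of genes called higher and 23.5% of those called lower, against 22.1% of all tested and 16.3% of all 32851.

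The calls were set beside those of neighbouring populations, whose comparisons share no library with this one. In day 3 SSEA1+ cells 912 genes were called, and 465 were called in the same direction in both, which is 15.6% of the day 6 calls and 51.0% of the day 3 calls. With day 6 Thy1+ cells (1936 called) 817 were shared in direction, 27.4% and 42.2%. With day 9 SSEA1+ cells (1861 called) 667 were shared in direction, 22.4% and 35.8%, and a further 204 were called in both with opposite signs. The effect itself differed from that of day 3 for 794 genes (5.90%), from that of day 9 for 1293 (9.61%) and from that of day 6 Thy1+ cells for 764 (5.68%). For day 9, 864 of the differences were more positive at day 6 and 429 more negative.

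Genes that moved with Ctcf shRNA were also followed along the course of the control cells, in libraries that this comparison does not use. Between day 3 and day 9 SSEA1+ control cells, 58.2% of all genes were called; 27.1% rose and 31.1% fell. Of the 1500 genes higher with Ctcf shRNA at day 6, 53.9% fell over that course and 18.9% rose. Of the 1480 lower genes, 53.5% rose and 14.9% fell. Between day 0 and day 12 GFP+ control cells, 80.2% of all genes were called, 40.1% higher and 40.2% lower. Over this course 67.3% of the genes higher with Ctcf shRNA fell and 19.7% rose. Of the genes lower with Ctcf shRNA, 54.9% rose and 31.1% fell. Expressed as shares of the course, the higher genes made up 19.3% of the 4182 genes that fell from day 3 to day 9 and the lower genes 21.7% of the 3642 that rose.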

How the data were processed

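RNA was extracted with TRIzol and made into libraries with a NEBNext Ultra kit, per the labels' protocols. The deposited values are a score per gene, the authors' normalized tag counts rounded to whole numbers; the 20 highest values are equal in all 44 libraries. The normalization method is not given in the sources used here. Trim Galore, FastQC, RSEM and the builds GRCm38 and mm10 are named, with no role, per the submitters' processing notes.

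Deposited scores were taken to log2(score + 1) and fitted with limma 3.58.1 in R 4.3.3, with a mean-variance trend and 1 coefficient for each of 22 groups over 44 libraries. P-values were adjusted by Benjamini-Hochberg over 13451 genes, and an adjusted p below 0.05 was called. Every gene met the filter, a score of at least 10 in 2 libraries. Differences of effect were contrasts in the same fit. The procedure was tested on simulated data. Gene positions came from GENCODE for 13447 genes, and promoters from RefSeq (GRCm38.p6).

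Genes named by fold or moderated t were called, did not overlap between groups and had a higher group mean at or above the median score of 490: 12 by fold and 6 by t in each direction. For each difference the 5 largest in each direction were named, and for lists up to 4 called members; other list members named were chosen after their values were seen. Members and lists were chosen with earlier results of these data known. The alternatives were another pseudocount, filter, scaling, trend, set of libraries and replicate block, and leaving out each library. Samples outside the sorted-cell table are not analysed here. Some genes that met the naming rule are not reported here.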

Additional observations from a re-analysis of the deposited data

Results flagged for a closer look

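The effect of Ctcf shRNA in day 6 SSEA1+ cells differed from its effect in another population for many genes, by a test of the difference of log2 fold changes (limma, Benjamini-Hochberg adjustment over all genes). Against day 3 SSEA1+ cells 794 genes passed, against day 9 SSEA1+ cells 1293 and against day 6 Thy1+ cells 764. Positive values below mean that the day 6 SSEA1+ log2 fold change was the higher of the pair. The genes were taken from those whose day 6 effect was itself called, so they favour genes that moved at day 6.

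Against day 3, the most positive differences were those of Adh7 (1.82, adjusted p = 6.11e-06), Pi15 (1.57, adjusted p = 0.00402), Sema3d (1.51, adjusted p = 0.00103), Vcam1 (1.39, adjusted p = 2.13e-09) and Fbn2 (1.38, adjusted p = 4.03e-04). Adh7 had scores of 2140 and 2294 against 2336 and 2386 at day 3, so its day 6 Ctcf shRNA level lay between the levels of day 3 and of the day 6 controls. The most negative were those of Slc16a3 (-3.75, adjusted p = 1.57e-10), Bnip3 (-2.59, adjusted p = 2.29e-07), Igfbp2 (-2.23, adjusted p = 4.07e-04), Chst11 (-1.56, adjusted p = 8.15e-07) and Gas6 (-1.35, adjusted p = 5.85e-10).

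Against day 9, the most positive differences were those of Calcrl (2.61, adjusted p = 2.55e-04), Ereg (2.59, adjusted p = 3.28e-14), Angpt1 (2.45, adjusted p = 3.16e-05), Col3a1 (2.11, adjusted p = 4.59e-09) and Lum (2.10, adjusted p = 0.0102). Angpt1 had 1194 and 1746 against 651 and 592 at day 9, opposite in direction to day 6. Lum did not pass without the first day 6 Ctcf shRNA library (adjusted p = 0.0612). The most negative were those of Slc16a3 (-3.08, adjusted p = 1.61e-09), Igfbp2 (-2.65, adjusted p = 1.25e-05), Tet1 (-1.44, adjusted p = 0.00267), Bnip3 (-1.41, adjusted p = 2.45e-04) and Prtg (-1.35, adjusted p = 0.0042).

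Against day 6 Thy1+ cells, the most positive differences were those of Pdgfra (1.94, adjusted p = 1.90e-04), Calcrl (1.78, adjusted p = 0.0178), Fbn2 (1.69, adjusted p = 2.45e-05), Wisp2 (1.63, adjusted p = 0.0246) and Cyp1b1 (1.62, adjusted p = 1.39e-06). The most negative were those of Igfbp2 (-3.23, adjusted p = 2.03e-06), Hist1h1d (-2.34, adjusted p = 0.0257), Chst11 (-2.14, adjusted p = 5.49e-09), Zfp971 (-1.69, adjusted p = 0.00826) and Sema5b (-1.24, adjusted p = 0.00795). Calcrl, Wisp2 and Hist1h1d did not pass without several single libraries, and for Hist1h1d the rRNA-rich control library holds the high score.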

How the results depend on the processing

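The number of genes called depended most on which libraries shared the estimate of spread. With only the libraries of the groups compared, 13 genes were called (5 higher, 8 lower), and the differences of effect passed for 37 genes against day 3, 233 against day 9 and 113 against day 6 Thy1+ cells. With 1 library left out, the calls ranged from 1787 to 2714, those higher from 870 to 1392 and those lower from 904 to 1322. The differences then ranged from 467 to 1129 against day 3, from 894 to 1464 against day 9 and from 413 to 684 against Thy1+ cells. The lowest number of calls came without Ctcf shRNA replicate 2, and 1806 were called without control replicate 1. Lower genes numbered 954 without control replicate 2. Against day 3, 494 passed without day 6 Ctcf shRNA replicate 2, 488 without day 3 Ctcf shRNA replicate 1 and 467 without day 3 control replicate 1. Against Thy1+ cells, 413 passed without Thy1+ Ctcf shRNA replicate 2 and 459 without Thy1+ control replicate 1. The cause was not tested. Klf4 ranged from -0.17 to 0.16, Myc from -0.15 to 0.14 and Pou5f1 from -0.37 to 0.14, with no call.

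Within day 6 SSEA1+ cells, same-numbered deviations of the Ctcf shRNA and control libraries correlated at 0.0364, which gave no sign of pairing there. Pairing by replicate number in the other populations was not tested. With the number as a replicate block, 3516 genes were called, and 1218 passed against day 3, 1625 against day 9 and 973 against Thy1+ cells. The control courses were not refitted with the block. A pseudocount of 8 gave 3049 calls, a minimum score of 100 gave 2945, quantile scaling 2803 and a robust trend 2926. Of the 2980 calls, 2769 to 2939 kept call and direction under these 4 settings.

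The depth behind the rounded scores is unknown, so no counting interval is given.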
